A study of Mus musculus with 9 samples.

Results

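The 9 genes described here write, maintain or remove methyl groups on cytosine in mouse DNA. They are the methyltransferases Dnmt1, Dnmt3a and Dnmt3b, the ubiquitin-like proteins Uhrf1 and Uhrf2, the oxidases Tet1, Tet2 and Tet3, and the glycosylase Tdg. They were chosen by name for this role. The 9 genes and all gene lists used below were chosen with earlier results of these data known. Of 43629 genes in the count tables, these are the 9 whose Ensembl identifier carries one of those symbols in the GENCODE annotation of GRCm38. All 9 were among the 16561 genes that passed the filter on low counts.

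In mammals Dnmt3a and Dnmt3b add methyl groups to CpG sites that carry none on either strand. Dnmt1 copies the pattern to the new strand after DNA replication, and Uhrf1 brings it to the freshly copied, singly methylated sites, while the role of the related Uhrf2 is less settled. The TET enzymes oxidise the methyl group with 2-oxoglutarate and iron, and Tdg cuts out the most oxidised bases so that base excision repair can put a plain cytosine back.

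Heart ventricles were taken at embryonic day 13.5 from embryos of CD-1 mice, an outbred stock, pooled by litter, digested with papain and depleted of cells that stick quickly to plastic. After 48 h of culture the cells were lipofected with 0.012 pmol of siRNA. Pools of 4 siRNAs were directed at Dnmt3a or at Dnmt3b, and the third group received a purchased negative control siRNA, so all 3 groups carry the transfection reagent and short double-stranded RNA. At 72 h after transfection the cells were sorted on magnetic columns for VCAM1, a surface protein of embryonic cardiomyocytes, and their poly(A) RNA was sequenced, with 3 libraries per group, named below by siRNA and library number (control 1, DNMT3a 2 and so on). Whether libraries of the same group stem from different litters or culture dishes is not stated, so each p reflects only the variation among these samples, and that may be technical. DNA methylation itself and protein levels were not analysed here.

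Between 27852412 and 35896018 reads were counted in genes per library. The cells were not cardiomyocytes alone. Summed over 11 fibroblast genes, levels ran from 37687 to 59033 CPM (read counts scaled to a common library size) in the 9 libraries, while 14 cardiomyocyte genes summed to 2127 to 2794 CPM in controls, 4489 to 5556 after DNMT3a siRNA and 5862 to 7144 after DNMT3b siRNA. The 7 epicardial genes summed to 1675 to 1953, 1155 to 1485 and 1040 to 1521 CPM in the same order, the 9 endothelial genes to 181 to 216, 186 to 206 and 243 to 258, and the 10 macrophage genes to 22.8 to 61.0, 8.47 to 17.97 and 20.6 to 49.6. The counts of calls that follow are to be read beside all genes tested. Of these, 4.87% were called higher and 5.22% lower after DNMT3a siRNA, and 3.52% and 2.12% after DNMT3b siRNA. Of the 14 cardiomyocyte genes 11 were called higher after DNMT3a siRNA and 12 after DNMT3b siRNA, and of the 11 fibroblast genes 4 and 5 were called lower. Of the 7 epicardial genes 3 were lower and 1 higher after DNMT3a siRNA and 1 was lower after DNMT3b siRNA, and of the 10 macrophage genes 3 were lower after DNMT3a siRNA. Of the 9 endothelial genes 1 was higher after DNMT3b siRNA, with a median log2 fold change of 0.93 over the list. The 8 smooth muscle and pericyte genes summed to 5677 to 8363 CPM, 8002 to 9161 and 8177 to 9743 in the same order of groups, with 0 called by edgeR and medians of 0.34 and 0.52 in the knockdowns. Every marker was counted in every library except 1 macrophage gene at 0 in DNMT3a 1. Control 2 and DNMT3a 2 stood apart from libraries 1 and 3 of their groups along the first principal component, on the side of the 3 DNMT3b libraries. In RNA from mixed cells, fewer cells of a type and less RNA per cell cannot be told apart, and the part of these shifts in the results below was not tested.

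The sequences of the siRNAs are not used here, so what can be shown is how much the transcripts they could meet have in common. Between all annotated transcripts of Dnmt3a and of Dnmt3b, 0 words of 19 bases were shared. The longest run common to their coding sequences had 18 bases, in capitals in the stretches below (GENCODE, GRCm38, forward strand, chr12:3896025-3896066 in Dnmt3a and chr2:153667539-153667580 in Dnmt3b, each within 1 exon).

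Dnmt3a: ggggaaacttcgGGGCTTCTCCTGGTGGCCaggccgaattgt

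Dnmt3b: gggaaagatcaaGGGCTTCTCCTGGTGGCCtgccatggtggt

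Dnmt3b has a closer relative next to it on chromosome 2. Dnmt3c, a methyltransferase known from the male germ line, shared 871 of its 2205 words of 19 bases (39.5%) with Dnmt3b. The longest common coding run had 287 bases, of which the first 96 are in capitals below after 12 bases in which the copies can differ. The stretches are spliced, from 3 exons each, on the forward strand at chr2:153677648-153683617 for Dnmt3b and chr2:153720492-153726485 for Dnmt3c. Dnmt3c had 0 to 5 counts per library in all 9 libraries.

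Dnmt3b: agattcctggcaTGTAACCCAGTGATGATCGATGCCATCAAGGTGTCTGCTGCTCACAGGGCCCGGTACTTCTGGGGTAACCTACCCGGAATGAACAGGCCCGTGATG

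Dnmt3c: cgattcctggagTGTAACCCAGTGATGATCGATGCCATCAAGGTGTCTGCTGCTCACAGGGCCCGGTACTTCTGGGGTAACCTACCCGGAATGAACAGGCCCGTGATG

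Each siRNA pool lowered the transcript it was directed at, and no other gene of the 9 passed the test in any comparison, or had an unadjusted p under 0.05, with edgeR, DESeq2 or limma-voom. Dnmt3a, the main de novo methyltransferase of these cells by transcript level, fell 5.56-fold after DNMT3a siRNA. Dnmt3b, present at a small share of that level to begin with, fell 2.53-fold after DNMT3b siRNA, to 39.6% of control. Of the other genes, none differed from control by more than 0.22 on the log2 scale in either knockdown.

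Dnmt3a (chr12:3806007-3914443, forward strand) stood at 232, 269.6 and 275 CPM in controls 1 to 3, at 40.3, 52.9 and 46.3 CPM after DNMT3a siRNA and at 215, 234 and 235 CPM after DNMT3b siRNA. The 3 libraries of the DNMT3a group lay far below the other 6, and the control and DNMT3b groups overlapped. The means were 259 ± 23.2 CPM (SD, n = 3) in controls, 46.5 ± 6.32 after DNMT3a siRNA and 228 ± 11.4 after DNMT3b siRNA. After DNMT3a siRNA the log2 fold change against control was -2.48 ± 0.11 (standard error; 95% interval -2.72 to -2.23; adjusted p = 3.42e-06, edgeR's quasi-likelihood test with Benjamini-Hochberg adjustment, which gives every adjusted p of a gene below). After DNMT3b siRNA it was -0.18 ± 0.11, with all 3 libraries under the control mean and an adjusted p of 0.348.

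Dnmt3b (chr2:153649450-153687730, forward strand) stood at 4.32, 4.26 and 4.33 CPM in controls, at 4.87, 4.70 and 4.71 CPM after DNMT3a siRNA and at 1.17, 2.43 and 1.51 CPM after DNMT3b siRNA. The 3 libraries of the DNMT3b group were lowest, with library 2 the least reduced, and the 3 libraries of the DNMT3a group lay just above every control. These levels rest on 117 to 155 counts per library in controls and on 38 to 75 after DNMT3b siRNA. The log2 fold change after DNMT3b siRNA was -1.34 ± 0.23 (95% interval -1.85 to -0.82, adjusted p = 0.00816). Without library 3 of the DNMT3b group it was -1.28 with an adjusted p of 0.0538, which ends the call. After DNMT3a siRNA the log2 fold change of Dnmt3b was 0.15 ± 0.22 (95% interval -0.34 to 0.63, adjusted p = 0.752), so the separation of the libraries was small beside the error the fit gives a gene of this count.

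Set against each other, the knockdowns differed past the threshold in the targeted genes: Dnmt3a was lower after DNMT3a siRNA than after DNMT3b siRNA by a log2 fold change of -2.29 ± 0.11 (adjusted p = 7.29e-06), and Dnmt3b was higher by 1.48 ± 0.23 (adjusted p = 0.00431). The 7 other genes did not pass the test in that comparison, with adjusted p from 0.418 to 0.976.

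**Figure D1:**
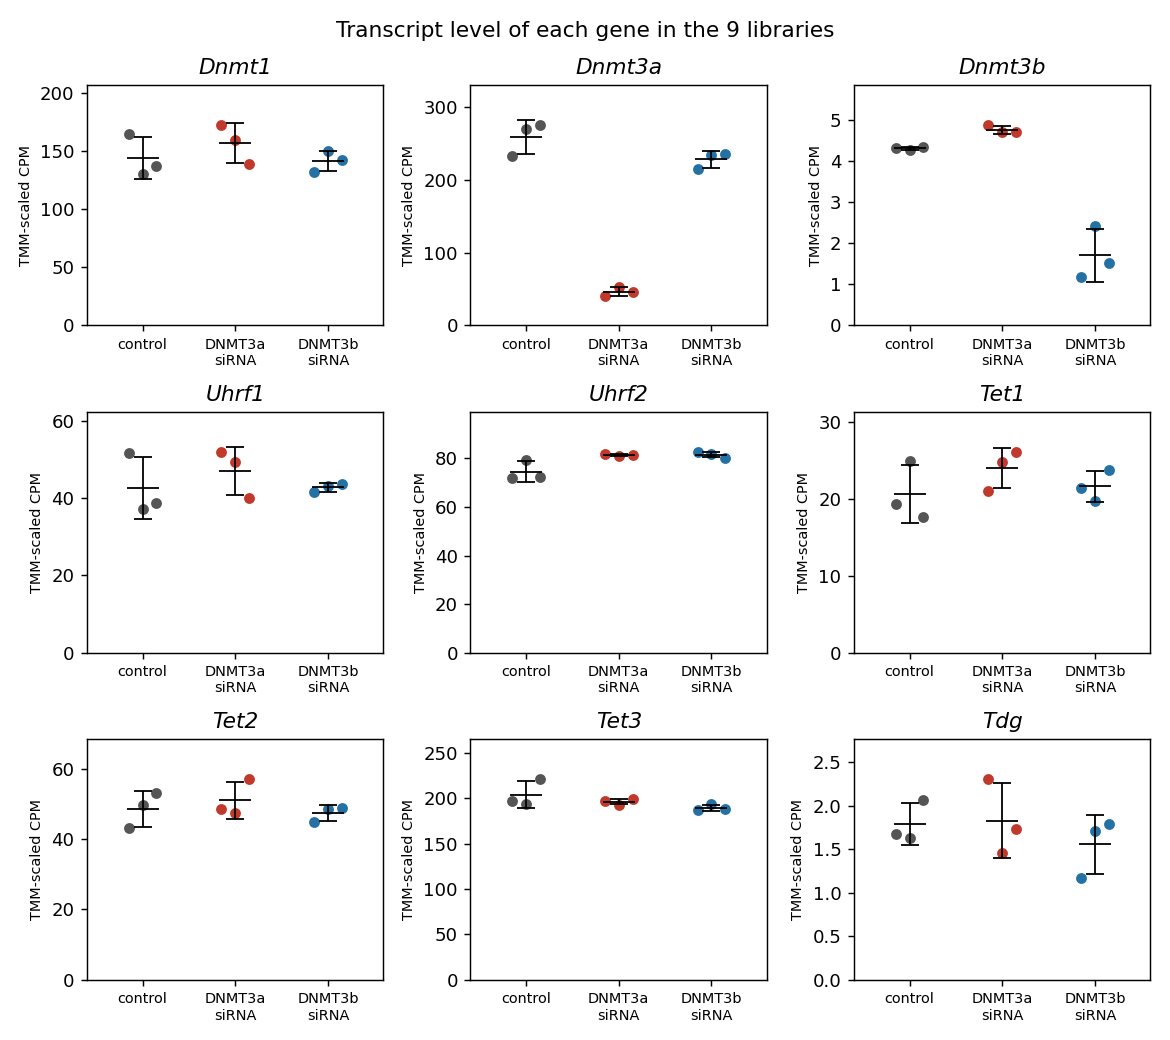
Level of each of the 9 genes in TMM-scaled CPM (vertical axis, from 0), by siRNA group (horizontal axis); points are libraries 1 to 3 from left to right, and the bar with whiskers is the mean ± SD over 3 libraries. Dnmt3a falls from 259 to 46.5 CPM after DNMT3a siRNA and Dnmt3b from 4.30 to 1.70 CPM after DNMT3b siRNA, while the groups lie close together for the other 7 genes.

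Read against all genes, the 9 did not stand out beyond the siRNA targets. After DNMT3a siRNA 0 of the 9 genes were called higher and 1 lower, where 10.1% of the 16561 genes tested were called (4.87% higher and 5.22% lower). After DNMT3b siRNA it was again 0 higher and 1 lower, where 5.64% of genes were called (3.52% higher and 2.12% lower). Between the knockdowns 1 was higher and 1 lower, where 9.55% were called (4.47% higher and 5.08% lower). In each case the genes called were the siRNA targets. These backgrounds lean on single libraries: calls over all genes fell to 868 after DNMT3a siRNA without DNMT3a 1 (971 without control 3, 1038 without DNMT3a 3), from 1671. After DNMT3b siRNA they went from 934 to 287 without DNMT3b 3, 384 without DNMT3b 2, 449 without control 3, 534 without control 1 and 1781 without control 2. Between the knockdowns they went from 1582 to 524 without DNMT3b 2, 555 without DNMT3b 3, 541 without DNMT3a 1 and 768 without DNMT3a 3. The 3 libraries of one group lay wholly apart from the 3 of the other for 3 genes in the first comparison (Dnmt3a, Dnmt3b and Uhrf2), for 2 in the second (Dnmt3b and Uhrf2) and for 2 in the last (Dnmt3a and Dnmt3b), where 26.7%, 26.1% and 32.3% of all genes tested did. The median log2 fold change over the 9 genes was 0.12, -0.03 and 0.14 in these comparisons, beside 0.02, 0.00 and 0.01 over all genes tested. The comparisons with control share the 3 control libraries.

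Because the genes differ in length, levels between genes were compared as CPM per kilobase of exon, counting every annotated exon base. In controls the order was Dnmt1 (19.5 ± 2.47), Dnmt3a (15.6 ± 1.39), Tet3 (12.2 ± 0.890), Uhrf1 (10.0 ± 1.87), Uhrf2 (8.67 ± 0.502), Tet2 (2.88 ± 0.306), Tet1 (1.33 ± 0.246), Dnmt3b (0.843 ± 0.00728) and Tdg (0.333 ± 0.0456). The libraries of Tet3 and Uhrf1, and those of Uhrf1 and Uhrf2, overlapped, and the other neighbours in the order did not. With the longest annotated transcript as the length, Dnmt3a came first (26.7) and Dnmt1 second (24.5) with overlapping libraries, Uhrf2 moved up to rank 3 (21.1), and the ranks of Tet2, Tet1, Dnmt3b and Tdg were as before. So the upper part of the order depends on which exons are counted, and the lower part was the same under both lengths. Neither length allows for sequence shared with other genes, so levels, and the last rank of Tdg above all, can be read too low.

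Per length, Dnmt3a exceeded Dnmt3b 18.5 ± 1.70 times in controls, 3.00 ± 0.460 times after DNMT3a siRNA and 44.6 ± 13.7 times after DNMT3b siRNA. In single libraries the ratio was 16.5, 19.4 and 19.5 in controls, 2.54, 3.46 and 3.02 after DNMT3a siRNA, and 56.4, 29.6 and 47.8 after DNMT3b siRNA. No library of one group reached the range of another, and Dnmt3a stayed the more abundant transcript even in the cells treated against it. The sum of both transcripts per kilobase was 16.4 ± 1.39 in controls, 3.73 ± 0.363 after DNMT3a siRNA and 14.0 ± 0.781 after DNMT3b siRNA. Dnmt3b made up 5.16% ± 0.475 of that sum in controls, 25.2% ± 2.93 after DNMT3a siRNA and 2.35% ± 0.805 after DNMT3b siRNA. These shares follow from the knockdowns of the targets and are given as a description. With the longest transcript as the length the ratio was 26.9, 4.37 and 64.9 in the same order.

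**Figure D2:**
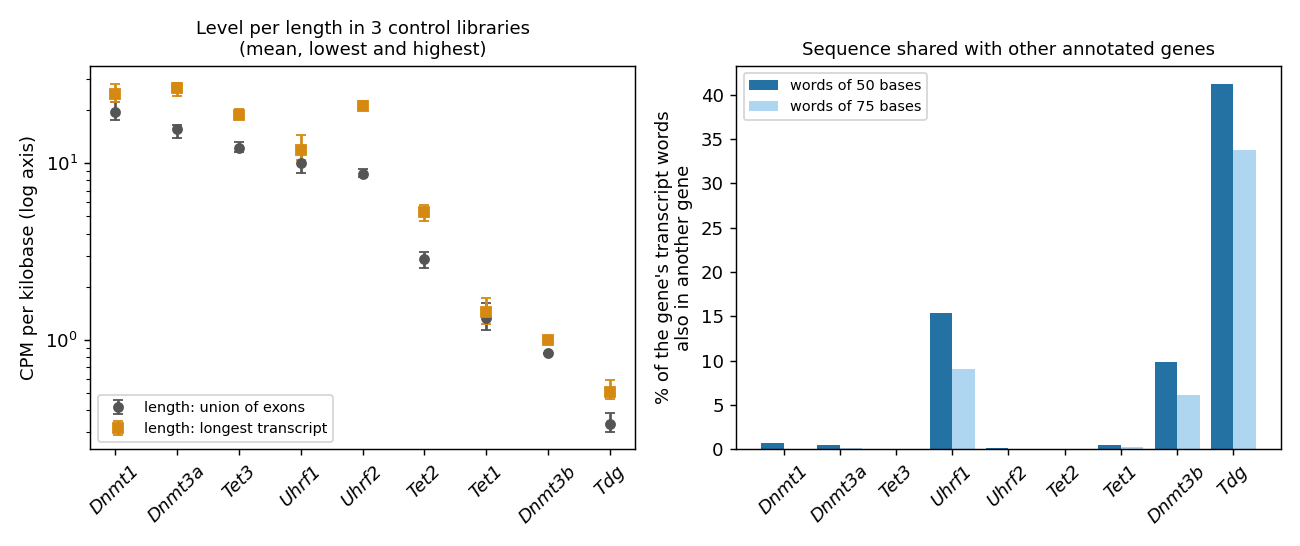
Left: level of each gene in the 3 control libraries in CPM per kilobase on a log axis, with the mean and the lowest and highest library, for 2 definitions of gene length; Dnmt3b (0.843) and Tdg (0.333) lie lowest under both. Right: percent of the distinct transcript words of 50 or 75 bases of each gene that also occur in another annotated gene; Tdg reaches 41.2% and 33.8%.

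Dnmt1, the maintenance methyltransferase (chr9:20907209-20959888, reverse strand), stood at 165, 130.2 and 137 CPM in controls, at 172, 159 and 139 CPM after DNMT3a siRNA and at 132, 149.7 and 142 CPM after DNMT3b siRNA. The groups overlapped. The log2 fold change was 0.12 ± 0.11 after DNMT3a siRNA (95% interval -0.12 to 0.36, adjusted p = 0.541) and -0.03 ± 0.11 after DNMT3b siRNA (95% interval -0.27 to 0.21, adjusted p = 0.915).

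Uhrf1, its partner at replication forks (chr17:56303321-56323486, forward strand), stood at 51.8, 37.3 and 38.8 CPM in controls, at 51.9, 49.3 and 40.04 CPM after DNMT3a siRNA and at 41.5, 43.3 and 43.6 CPM after DNMT3b siRNA. Control 1 was high beside the other controls, as it was for Dnmt1, and the groups overlapped. The log2 fold change was 0.14 ± 0.13 (adjusted p = 0.573) and 0.00 ± 0.13 (adjusted p = 0.990) in the knockdowns. Uhrf1 per kilobase was 0.511 ± 0.0297 of Dnmt1 in controls, 0.519 ± 0.0182 after DNMT3a siRNA and 0.526 ± 0.0226 after DNMT3b siRNA, so the ratio of the pair differed between groups by less than the spread within each.

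The pair varied together from library to library. Over the 9 libraries, which include the 3 groups and share library numbers, the log2 levels of Dnmt1 and Uhrf1 correlated with Pearson's r = 0.951 (exact permutation p = 0.000251, adjusted over 45 relations 0.0113) and Spearman's rho = 0.933 (exact permutation p = 0.00075, adjusted 0.0338). The permutation treats the 9 libraries as interchangeable. Groups and pairs of equal number do not meet this, so each exact permutation p here and below can be too small. Without the 2 libraries farthest from the median of Dnmt1 r was 0.891, and for deviations from the group means it was 0.952. Of the 45 relations computed, among the 9 genes and with the summed level of 24 genes of DNA replication and mitosis, this was the one whose adjusted p was under 0.05.

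With that summed level Dnmt1 gave r = 0.857 and rho = 0.817 (exact permutation p = 0.00384 and 0.0108, adjusted 0.0576 and 0.162). Uhrf1 gave r = 0.882 and rho = 0.850 (adjusted 0.0518 and 0.137). Neither passed the adjustment. Without the 2 farthest libraries the r values were 0.688 and 0.719, and within groups, as deviations from the group means, 0.927 and 0.933. By group the summed level was 1809, 1491 and 1370 CPM in controls, 1723, 1610 and 1369 after DNMT3a siRNA and 1432, 1582 and 1549 after DNMT3b siRNA, so control 1 and DNMT3a 1 were highest for the replication genes as they were for Uhrf1. The genes whose levels were most like Dnmt1 among 10770 candidates were Mcm2 (r = 0.949), a subunit of the replicative helicase, Ndc1 (0.945), a nuclear pore protein, and Brca1 (0.938), a DNA repair protein. For Uhrf1 they were Mcm2 (0.957), Mcm5 (0.948), another helicase subunit, and Ndc1 (0.946).

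**Figure D3:**
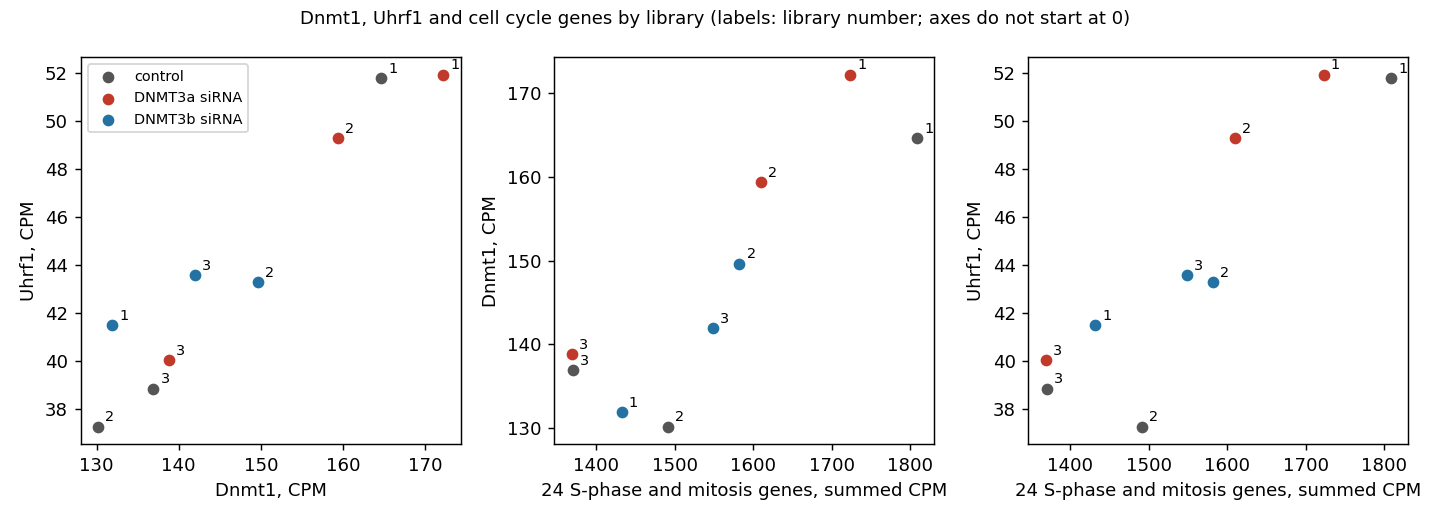
Left: Uhrf1 against Dnmt1, both in CPM; middle and right: Dnmt1 and Uhrf1 against the summed CPM of 24 replication and mitosis genes. Each point is a library, coloured by group and labelled with its number; the axes do not start at 0, and libraries high for Dnmt1 tend to be high for Uhrf1 (r = 0.951).

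The promoters of the 9 genes were also searched for a letter pattern. E2F factors switch on genes of S phase, and 4 words of 8 bases were taken as E2F sites: TTTCCCGC, TTTGGCGC, TTTCGCGC and TTTGCCGC, on both strands. RefSeq (GRCm38.p6) lists 14 promoters for the 9 genes, from 250 bases before to 50 after a start. A word stood in 2 of them, 1 of the 3 promoters of Dnmt1 and 1 of the 2 of Uhrf1, and in 2.27% of all 32851 promoters of that length. In the promoters below, written along the gene's strand, the words are in capitals and do not overlap. The first is at chr9:20952574-20952873, reverse strand, and the other at chr17:56304063-56304362, forward strand.

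Dnmt1: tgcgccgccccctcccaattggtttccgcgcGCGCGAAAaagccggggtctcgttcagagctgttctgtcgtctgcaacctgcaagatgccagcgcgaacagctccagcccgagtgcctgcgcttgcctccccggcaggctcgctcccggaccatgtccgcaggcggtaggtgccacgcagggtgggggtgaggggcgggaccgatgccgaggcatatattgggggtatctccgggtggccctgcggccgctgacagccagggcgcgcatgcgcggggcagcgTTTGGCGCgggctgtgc

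Uhrf1: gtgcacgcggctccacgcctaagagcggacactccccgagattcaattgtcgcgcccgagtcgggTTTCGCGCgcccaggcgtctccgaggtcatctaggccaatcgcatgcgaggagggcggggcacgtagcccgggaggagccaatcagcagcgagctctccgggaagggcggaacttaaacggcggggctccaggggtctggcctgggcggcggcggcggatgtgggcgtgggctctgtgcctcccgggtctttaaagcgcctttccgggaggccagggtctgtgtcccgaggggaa

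A match is a description of these letters, not of binding, and a part of E2F factors in the levels of this pair was not tested. Every word holds a CpG, and the share of CpG-rich promoters with a word was not computed. Of the 14 promoters 9 were rich in CpG (GC of at least 50% and a ratio of observed to expected CpG of at least 0.6), as were 33.5% of all promoters in the table. On the list of replication and mitosis genes, E2f1 fell after DNMT3a siRNA from 33.3 ± 1.85 to 23.5 ± 2.94 CPM (log2 fold change -0.50 ± 0.12, adjusted p = 0.0207, lost without control 1 or without DNMT3a 3). Dnmt1 and Uhrf1 did not pass the test in that comparison, and a link between E2f1 and this pair was not tested.

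Uhrf2 (chr19:30030513-30093722, forward strand) was the gene besides the targets whose libraries separated from the controls. It stood at 71.8, 79.5 and 72.2 CPM in controls, at 81.7, 80.9 and 81.4 CPM after DNMT3a siRNA and at 82.6, 82.0 and 80.2 CPM after DNMT3b siRNA. All 6 knockdown libraries were above all 3 controls, and control 2 came close to them. The log2 fold changes were 0.13 ± 0.07 (95% interval -0.03 to 0.28, adjusted p = 0.291) and 0.13 ± 0.07 (95% interval -0.02 to 0.28, adjusted p = 0.305), against the same controls, and neither passed the test. The levels most like those of Uhrf2 belonged to Kcne1 (r = 0.983), a potassium channel subunit, Thap11 (0.974), a transcription factor, and Selenow (0.972), a selenoprotein.

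The oxidases were dominated by Tet3. Per kilobase, Tet3 made up 74.3% ± 2.21 of the sum of Tet1, Tet2 and Tet3 in controls, 72.0% ± 1.72 after DNMT3a siRNA and 73.0% ± 1.00 after DNMT3b siRNA. The sum itself was 16.4 ± 0.983, 16.3 ± 0.556 and 15.6 ± 0.281 CPM per kilobase in the same order. The sums differed between groups by less than the SD among controls, and the shares by about that SD or less.

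Tet3 (chr6:83362373-83459084, reverse strand) stood at 197.5, 193 and 221 CPM in controls, at 197, 193 and 199 CPM after DNMT3a siRNA and at 187, 194 and 188 CPM after DNMT3b siRNA. Control 3 was the highest library, and the groups overlapped. The log2 fold changes were -0.05 ± 0.07 (95% interval -0.22 to 0.11, adjusted p = 0.719) and -0.11 ± 0.07 (95% interval -0.27 to 0.06, adjusted p = 0.446).

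Tet2 (chr3:133463679-133545139, reverse strand) stood at 43.0, 49.7 and 53.2 CPM in controls, at 48.6, 47.4 and 57.0 CPM after DNMT3a siRNA and at 44.9, 48.5 and 48.9 CPM after DNMT3b siRNA. The groups overlapped, with log2 fold changes of 0.07 ± 0.10 (adjusted p = 0.745) and -0.03 ± 0.10 (adjusted p = 0.885). With Uhrf1, Tet2 gave r = -0.579 over 9 libraries (adjusted p = 0.558 by exact permutation), which did not pass the adjustment. For deviations from the group means r was -0.836, with no p computed.

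Tet1 (chr10:62804570-62908996, reverse strand) stood at 19.3, 24.9 and 17.6 CPM in controls, at 21.0, 24.8 and 26.0 CPM after DNMT3a siRNA and at 21.4, 19.7 and 23.7 CPM after DNMT3b siRNA. Control 2 stood above the other controls and inside the range of the DNMT3a group. The log2 fold changes were 0.22 ± 0.14 (95% interval -0.09 to 0.52, adjusted p = 0.386) and 0.07 ± 0.14 (95% interval -0.24 to 0.38, adjusted p = 0.835).

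**Figure D4:**
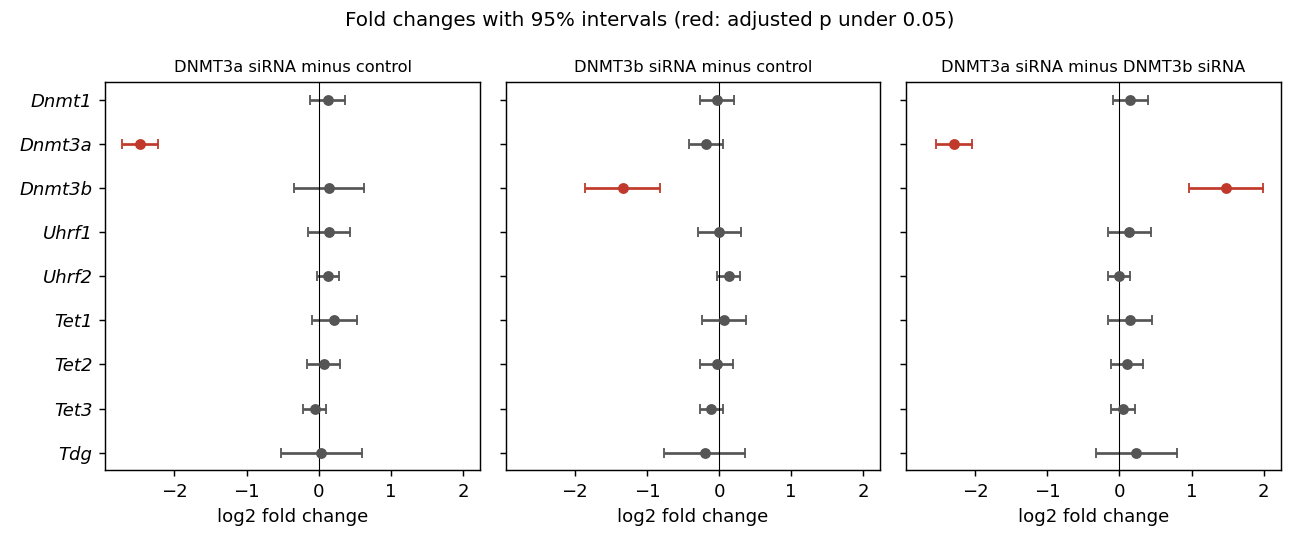
Log2 fold change (horizontal axis) of the 9 genes in the 3 comparisons, with 95% intervals from the quasi-likelihood fit; red marks an adjusted p under 0.05. The targets stand out at -2.48 and -1.34, and the intervals of all other genes against control include 0.

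The control and DNMT3a libraries of equal number varied together, so the differences within the 3 pairs are given too. DNMT3a minus control, in log2 CPM for pairs 1 to 3, was 0.07, 0.29 and 0.02 for Dnmt1, 0.0039, 0.40 and 0.04 for Uhrf1, and 0.19, 0.03 and 0.17 for Uhrf2. It was 0.17, 0.14 and 0.12 for Dnmt3b and -0.0023, -0.0019 and -0.15 for Tet3. These 5 genes had the same sign in all 3 pairs, some of them by very little, while Tet1, Tet2 and Tdg did not. The share of all genes tested with the same sign in all 3 pairs was not computed, so this count is only a description. With the library number as a replicate block the adjusted p of these 8 genes (edgeR) ran from 0.280 (Uhrf2) to 0.946 (Tdg), so none was called.

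A p that misses the threshold does not show that a transcript was level, and the intervals say what was measurable. Over the 8 genes not called after DNMT3a siRNA, the 95% intervals of the fold ran from 0.695 (Tdg) to 1.55 (Dnmt3b). After DNMT3b siRNA they ran from 0.588 (Tdg) to 1.30 (Tet1). The widest belonged to Dnmt3b and Tdg, the genes with the fewest counts.

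Tdg (chr10:82629828-82650799, forward strand) had the lowest count of the 9, and much of its sequence is not its own. It stood at 1.67, 1.63 and 2.07 CPM in controls, at 2.31, 1.45 and 1.73 CPM after DNMT3a siRNA and at 1.17, 1.72 and 1.79 CPM after DNMT3b siRNA, from 38 to 71 counts per library. The groups overlapped, with log2 fold changes of 0.03 ± 0.25 (adjusted p = 0.956) and -0.20 ± 0.26 (adjusted p = 0.704).

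Of the 5556 distinct words of 50 bases in Tdg transcripts, 41.2% also occurred in another annotated gene, most of them in the processed pseudogenes Tdg-ps, Gm9855 and Gm5597 (copies of a spliced transcript put back into the genome). At 75 bases the share was 33.8%. For Uhrf1 it was 15.4% and 9.05%, nearly all with the pseudogene Gm5648, and for Dnmt3b 9.81% and 6.17%, all with Dnmt3c. The other 6 genes shared at most 0.761% of words of 50 bases. Reads that matched several places stood in a summary line and in no gene, so a level can be read too low where sequence is shared. That line held 36.6% to 42.5% of the total of each table, which need not be the share of reads. By group it was 36.6% to 40.1% in the DNMT3a group, 41.3% to 42.5% in the control group and 41.5% to 42.5% in the DNMT3b group.

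The copy that carried reads was Gm9855 (chr10:42054113-42055306, reverse strand, 1194 bases), which overlaps no other annotated gene. Its longest run in common with the Tdg coding sequence had 756 bases. The first 96 of them are in capitals below, after 12 bases that end in a difference. The Tdg stretch is spliced from 2 exons at chr10:82638836-82641382, forward strand, and the Gm9855 stretch lies at chr10:42055113-42055220, reverse strand.

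Tdg: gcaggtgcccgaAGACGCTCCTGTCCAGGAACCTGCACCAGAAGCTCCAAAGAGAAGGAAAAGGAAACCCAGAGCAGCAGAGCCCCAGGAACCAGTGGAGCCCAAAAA

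Gm9855: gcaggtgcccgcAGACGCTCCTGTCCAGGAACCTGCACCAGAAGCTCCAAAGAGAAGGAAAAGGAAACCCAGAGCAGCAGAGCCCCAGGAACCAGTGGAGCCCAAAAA

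Gm9855 stood at 9.61, 9.07 and 9.14 CPM in controls, at 9.81, 9.70 and 7.95 CPM after DNMT3a siRNA and at 6.76, 6.51 and 6.45 CPM after DNMT3b siRNA. It was above Tdg in every library, and its 3 DNMT3b libraries were below the other 6. The log2 fold change after DNMT3b siRNA was -0.50 ± 0.12 (adjusted p = 0.0388), and after DNMT3a siRNA -0.02 ± 0.12 (adjusted p = 0.947). The former call was lost under 9 of 19 alternative settings, 6 of them with a single library left out, with adjusted p up to 0.147 and the fold change between -0.52 and -0.47. Whether these reads came from the pseudogene or from Tdg transcripts cannot be told apart from the counts. Tdg-ps had 0 to 2 counts per library and Gm5597 2 to 14.

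With the 3 copies added to Tdg, an alternative chosen after seeing the data, the sum was 11.6, 11.2 and 11.3 CPM in the control libraries, then 12.4, 11.4 and 9.78 CPM after DNMT3a siRNA and 8.12, 8.29 and 8.48 CPM after DNMT3b siRNA. The DNMT3b libraries were below all others. On that sum the log2 fold change after DNMT3b siRNA was -0.45 (adjusted p = 0.0463), while for Tdg alone it was -0.20 (adjusted p = 0.704). This sum was not recomputed under the other alternatives. The reads assigned to Tdg itself were 12.8% to 21.1% of the sum. For Uhrf1, adding Gm5648 (10.3 to 14.4 CPM) and the less abundant Gm15953 left the gene without a call in each comparison.

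**Figure D5:**
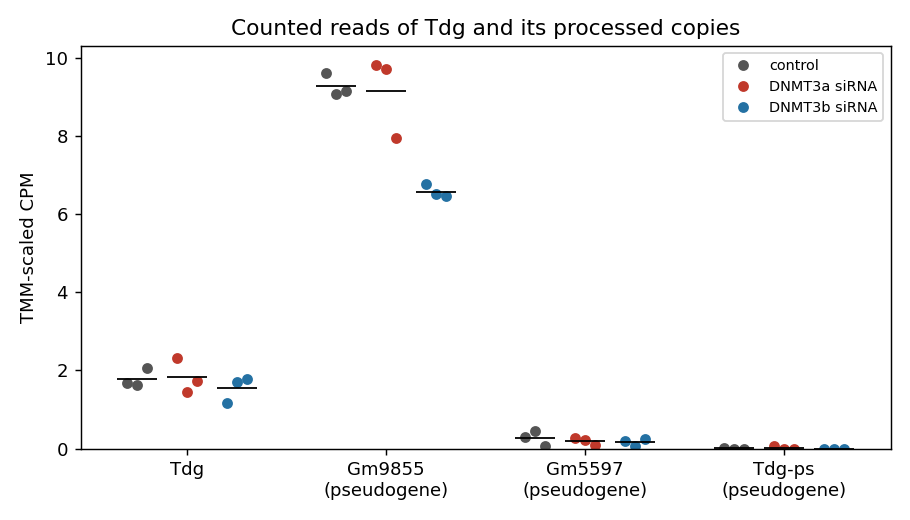
TMM-scaled CPM (vertical axis, from 0) of Tdg and of its processed pseudogenes Gm9855, Gm5597 and Tdg-ps; points are libraries and the lines are group means. Gm9855 lies above Tdg in all 9 libraries and is lowest in the 3 DNMT3b libraries (6.45 to 6.76 CPM).

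Some annotated genes overlap members. Glt8d2, on the strand opposite to Tdg, shared 367 exon bases with it and had 53 to 150 counts per library, a number of the same order as that of Tdg. The antisense gene Dnmt3aos shared 133 exon bases with Dnmt3a and had 1 to 10 counts. The library kit is not described as keeping strand. A summary line for ambiguous reads held from 1.92% (DNMT3b 3) to 2.45% (DNMT3a 1) of the total of a table. The strand setting of the counting was not given, so whether reads in shared bases went there or to a gene is unknown.

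Genes around the 9 were followed in 6 lists, chosen with earlier results of these data known. Their calls were less firm than that of Dnmt3a: of 30 calls in these lists and of Gm9855, 8 held under all 19 alternative settings and 22 were lost with some single library left out, and 0 changed direction. The counts of each list are to be read beside all genes tested, of which 4.87% were called higher and 5.22% lower after DNMT3a siRNA, 3.52% and 2.12% after DNMT3b siRNA, and 4.47% and 5.08% between the knockdowns, and whose median log2 fold changes were 0.02, 0.00 and 0.01. Partners of the methyltransferases, such as Usp7, Hells and Pcna, had 0 of 18 tested genes called in any of the 3 comparisons with edgeR or limma-voom, with 1 gene at an unadjusted p under 0.05 in each. DESeq2 called 1, Morc3, after DNMT3b siRNA, a gene named here after its value was seen. Their median log2 fold change was 0.03 after DNMT3a siRNA and -0.01 after DNMT3b siRNA. Dnmt3l, the catalytically inactive helper of the de novo enzymes, was not among the genes tested.

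Enzymes of the methyl donor S-adenosylmethionine and of one-carbon metabolism had 0 of 15 called higher and 2 lower after DNMT3a siRNA, and 0 higher and 3 lower after DNMT3b siRNA (all genes: 5.22% and 2.12% lower). Nnmt, which spends the donor on nicotinamide, fell in both, from a control level of 7.31 ± 0.112 CPM to 3.77 ± 0.967 (log2 fold change -0.96 ± 0.27, adjusted p = 0.0480) and 2.93 ± 1.19 (-1.31 ± 0.27, adjusted p = 0.0191). Ahcyl1, related to the enzyme that clears the spent donor, fell after DNMT3a siRNA (-0.40 ± 0.07, adjusted p = 0.00701). After DNMT3b siRNA the mitochondrial folate enzyme Mthfd2 fell by 0.81 on the log2 scale (from 79.2 ± 3.64 to 45.2 ± 7.98 CPM, adjusted p = 0.00262), and adenosine kinase, Adk, fell by 0.59 (adjusted p = 0.0139). Between the knockdowns 1 gene of the list was higher after DNMT3a siRNA, Mthfd2 (0.92 ± 0.11, adjusted p = 0.00137). The list's median was -0.09 and -0.30 against control, beside 0.02 and 0.00 for all genes. The calls of Mthfd2 and Ahcyl1 held under every alternative. Those of Nnmt were lost under 8 and 5 of 19 (adjusted p up to 0.197 and 0.0945), and that of Adk without DNMT3b 2 or DNMT3b 3 (up to 0.0755).

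Partners of the TET enzymes and enzymes that make or use 2-oxoglutarate had 4 of 19 called higher and 1 lower after DNMT3a siRNA, and 3 higher and 2 lower after DNMT3b siRNA (all genes: 4.87% higher and 5.22% lower, then 3.52% and 2.12%). The list's median log2 fold change was 0.10 and 0.03. In both, Dcaf1, a substrate receptor of a ubiquitin ligase, rose from 38.2 ± 1.65 CPM to 51.8 ± 1.36 and 53.9 ± 1.73 (log2 fold changes 0.44 ± 0.07 and 0.50 ± 0.07, adjusted p = 0.00450 and 0.00361). Idh1, the cytosolic isocitrate dehydrogenase, fell in both from 103 ± 19.5 CPM to 70.0 ± 4.70 and 67.2 ± 5.90 (-0.56 ± 0.13 and -0.62 ± 0.13, adjusted p = 0.0180 and 0.0163). Ogdh (0.35 ± 0.08, adjusted p = 0.0169) and Idh3g (0.33 ± 0.08, adjusted p = 0.0334) of the citric acid cycle rose after DNMT3a siRNA. After DNMT3b siRNA Idh3a (0.48 ± 0.11, adjusted p = 0.0258) and Idh3b (0.35 ± 0.08, adjusted p = 0.0295), subunits of the same mitochondrial enzyme as Idh3g, rose. Qser1, a protein known to keep methyltransferases away from some promoters, fell (-0.30 ± 0.08, adjusted p = 0.0432). Between the knockdowns edgeR and limma-voom called 0 of 19, with 4 at an unadjusted p under 0.05, and DESeq2 called 1 (Idh2). The calls of Dcaf1 held under every alternative. Each of the others named here was lost under some. Among single libraries, Idh1 lost its call without DNMT3a 3 in the first comparison, and without DNMT3b 2 or DNMT3b 3 in the second (adjusted p up to 0.0763 and 0.0900 over all alternatives). Ogdh, Idh3g, Idh3a, Idh3b and Qser1 lost theirs under 5, 9, 4, 6 and 11 of 19 alternatives (up to 0.0707, 0.122, 0.116, 0.131 and 0.192). In both knockdowns the summed cardiomyocyte markers were above the controls, and their part in these changes was not tested.

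Base excision repair and Gadd45 genes had 2 of 18 called higher and 0 lower after DNMT3a siRNA, and 0 called after DNMT3b siRNA with edgeR, DESeq2 or limma-voom (4 at an unadjusted p under 0.05 with edgeR). For 18 genes the former count is near the 10.1% of all genes called in either direction, and the medians were 0.13 and 0.07. Gadd45g, a stress-induced gene linked to demethylation, rose from 50.9 ± 2.62 to 83.4 ± 9.54 CPM after DNMT3a siRNA (0.71 ± 0.11, adjusted p = 0.00267) and stood higher there than after DNMT3b siRNA (0.47 ± 0.11, adjusted p = 0.0225). Xrcc1, the scaffold of the ligation step, rose after DNMT3a siRNA (0.38 ± 0.10, adjusted p = 0.0442), and the glycosylase Smug1 was higher after DNMT3a than after DNMT3b siRNA (0.43 ± 0.09, adjusted p = 0.0131). The call of Gadd45g against control held under every alternative, while that between the knockdowns and that of Smug1 were each lost with any of 4 single libraries left out (up to 0.0927 and 0.0643), and that of Xrcc1 under 11 of 19 (up to 0.175).

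Readers of methylated CpG and their corepressors had 0 of 13 called higher and 2 lower after DNMT3a siRNA, and 0 higher and 1 lower after DNMT3b siRNA. With 13 genes these counts are close to the shares of all genes called, 10.1% and 5.64%, and the medians were -0.04 and -0.07. Mbd1 fell in both, from a control level of 86.9 ± 20.3 CPM to 51.6 ± 7.45 and 41.5 ± 3.40 (-0.75 ± 0.17 and -1.06 ± 0.17, adjusted p = 0.0201 and 0.00616). Gatad2a, a subunit of the NuRD corepressor, fell after DNMT3a siRNA (-0.31 ± 0.07, adjusted p = 0.0186) and was lower there than after DNMT3b siRNA (-0.26 ± 0.07, adjusted p = 0.0432). The call of Mbd1 after DNMT3b siRNA held under every alternative. After DNMT3a siRNA it was lost without control 3, DNMT3a 1 or DNMT3a 3, and under 5 of 19 in all (up to 0.0732), and those of Gatad2a were lost under 4 and 11 of 19 (up to 0.0718 and 0.165).

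Of the 24 replication and mitosis genes 0 were higher and 2 lower after DNMT3a siRNA, E2f1 and the helicase subunit Mcm7 (-0.84 ± 0.14, adjusted p = 0.00417), and 0 were called after DNMT3b siRNA with edgeR, DESeq2 or limma-voom, with 0 at an unadjusted p under 0.05. For 24 genes the former count is near the 10.1% of all genes called in either direction (5.22% lower), and the medians were 0.05 and 0.02. E2f1 and Mcm7 were also lower after DNMT3a than after DNMT3b siRNA (-0.54 ± 0.12, adjusted p = 0.0163, and -0.70 ± 0.14, adjusted p = 0.0119). The call of Mcm7 against control held under every alternative, and that between the knockdowns was lost without DNMT3b 2 or DNMT3b 3 (up to 0.0614). Those of E2f1 were lost under 3 and 4 of 19 (up to 0.0855 and 0.0777).

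The genes whose levels followed Dnmt3a most closely over the 9 libraries were Slc39a1 (r = 0.992), a zinc transporter, Cfl2 (0.992), a muscle cofilin, and Shc1 (0.991), a signalling adaptor. For Dnmt3b they were Ttl (0.972), a tubulin-modifying enzyme, Casc3 (0.961) of the exon junction complex and Katnal1 (0.953), a katanin-like protein. These likenesses include the difference between the siRNA groups and are given as a description over 9 libraries and 10770 candidates. For Tet3 the closest were Usp42 (0.937), Mdm4 (0.916) and Zzef1 (0.915), for Tet2 Asap3 (0.973), Fam234a (0.956) and Vps52 (0.950), for Tet1 Wdr24 (0.913), Gramd3 (0.902) and AI597479 (0.901), and for Tdg Agpat1 (0.955), Prr12 (0.948) and Atxn2l (0.941).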

How the data were processed

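RNA was measured in 9 libraries, 3 per siRNA group. FastQC, TopHat2, HTSeq and the builds mm10 and GRCm38 are listed, per the submitters' processing notes. The annotation release and strand setting of the counting were not given in the sources used here. Values are those the authors deposited: whole-number read counts per Ensembl gene, not normalised, with 5 summary lines holding 49.2% to 56.2% of each table; these stayed out of library sizes and tests. Gene names and coordinates came from GENCODE mouse release M21, in which 42548 of 43629 identifiers had a symbol, and promoters from RefSeq (GRCm38.p6).

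Genes were kept by filterByExpr (minimum count 10, minimum total 15), scaled by TMM, and fitted together over the 9 libraries with group as the only term (edgeR 4.0.16, R 4.3.3, robust quasi-likelihood fit, 6 residual degrees of freedom, biological coefficient of variation 0.154). Each comparison used the two-sided quasi-likelihood F test with Benjamini-Hochberg adjustment over 16561 genes. The threshold for a call was an adjusted p of 0.05. The F statistic and the fold change gave the standard errors and 95% intervals. CPM are TMM-scaled. The fit was also run on simulated counts with known changes, and the share of these it recovered is not reported here. DESeq2 1.42.0, limma-voom (limma 3.58.1), other scalings and filters, 2-group fits, a replicate block and leaving out libraries were alternatives.

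Correlations among the 9 genes and with the summed level were taken on log2 CPM without a prior count, with exact permutation over 9 libraries. That permutation took no account of group or library number. The most similar genes, the differences within pairs, the correlations of equal library numbers and the principal components used log2 CPM with a prior count of 2. The 9 genes were named in every comparison. Of each pathway list, counts and up to 4 called genes per comparison with the smallest adjusted p were named. For each gene, the 3 protein-coding genes most correlated with it (mean log2 CPM of at least 2) were named. Genes sharing position or sequence with a member were named too. In the TET partner list, 1 called gene is counted but not reported here. The 9 genes and all lists were chosen with earlier results of these data known. Wt1 stands in the TET partner list and in the epicardial list.

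Replicates differed by more than counting noise in every pair (chi-square over degrees of freedom from 6.42 to 59.7), so each library counted as 1. For equal library numbers, deviations from group means in the control and DNMT3a groups correlated with r = 0.434, 0.513 and 0.459, so the numbers were taken to pair these libraries. All p-values and intervals printed come from the fit without a block, as designed, unless a replicate block is named. Between DNMT3b and control libraries r was 0.212, 0.101 and 0.033, and between DNMT3a and DNMT3b libraries 0.161, 0.078 and 0.041, so the numbers were not taken to pair those.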

Additional observations from a re-analysis of the deposited data

How the results depend on the processing

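The number of the 9 genes called was recomputed under 19 alternatives in each comparison. After DNMT3a siRNA it was 1 under all 19. After DNMT3b siRNA it was 1 except that it was 0 without library 3 of the DNMT3b group (edgeR, where Dnmt3b had -1.28 and an adjusted p of 0.0538) and 2 with the pseudogene and Dnmt3c counts added, and it ran from 0 to 1 when single libraries were left out. Between the knockdowns it was 2, or 3 with the copies added, when Tdg reached 0.43 (adjusted p = 0.0416). The log2 fold change of Dnmt3a after DNMT3a siRNA stayed between -2.60 and -2.38, and that of Dnmt3b after DNMT3b siRNA between -1.71 and -1.13 (-1.69 to -1.13 when single libraries were left out). With the library number as a replicate block they were -2.48 and -1.36, and the block changed no call among the 9 genes. The block covers all 9 libraries, although the numbers were not taken to pair the DNMT3b group with the others. Its values in comparisons with that group are given as a description.

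Of 513 log2 fold changes of the 9 genes under alternatives, 27 changed sign, all without a call. Leave-one-out ranges that crossed 0 after DNMT3b siRNA were -0.097 to 0.078 for Dnmt1, -0.087 to 0.167 for Uhrf1, -0.036 to 0.222 for Tet1 and -0.118 to 0.031 for Tet2. After DNMT3a siRNA they were -0.165 to 0.162 for Tdg, -0.018 to 0.137 for Tet2 and -0.091 to 0.0057 for Tet3, and between the knockdowns -0.019 to 0.0069 for Uhrf2. For Uhrf1 after DNMT3b siRNA the value was also negative with DESeq2's size factors (-0.0057), with no filter (-0.015), with DESeq2 (-0.014), without replicate 2 of every group (-0.105) and with copies added (-0.016). For Uhrf2 between the knockdowns it was positive with library size alone (0.020), with no filter (0.0040) and without replicate 2 of every group (0.0031), and for Tdg after DNMT3a siRNA negative with copies added (-0.020).

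Over all genes, calls ran from 868 to 2370 after DNMT3a siRNA, from 287 to 1801 after DNMT3b siRNA and from 524 to 2513 between the knockdowns. The replicate block gave 2370, 1801 and 2513, the DNMT3a pair of groups alone 946, and DESeq2 1692 after DNMT3b siRNA. With library size alone, 1019 genes were higher and 649 lower after DNMT3a siRNA, against 807 and 864 with TMM, and DESeq2 gave 849 and 843 after DNMT3b siRNA, against 583 and 351. The cause of these differences was not tested. Adding the copies and testing the pathway genes under the alternatives were choices made after seeing the data, and the replicate block kept all 30 of those calls. Some of these calls involve the DNMT3b group, whose library numbers were not taken to pair with the others. Depth limits Dnmt3b and Tdg most, with 38 to 155 counts per library, and 3 libraries per group limit every interval.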
